A study of Mus musculus with 9 samples.

Results

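The circadian clock genes examined here were the 10 rows of the deposited count table with the symbols *Arntl* (also called Bmal1), *Clock*, *Per1*, *Per2*, *Per3*, *Cry1*, *Cry2*, *Nr1d1*, *Nr1d2* and *Dbp*, out of 27179 rows in all. They were chosen by name, as genes whose transcripts would differ between groups collected at different times of day or at different clock phases. All 10 passed the filter on low counts, which left 16329 genes for testing. RNA-seq was performed on whole mandibles including the teeth from 6-month-old male mice on the C57BL/6 background, 5 of them wild type (WT) and 4 labelled FcgRIIB-/-, a deletion of the inhibitory Fc gamma receptor that serves as a model of lupus; no treatment is given for either group. Neither the labels nor the study's methods give the hour of collection or the light cycle, so a difference in collection time and a difference in genotype cannot be told apart in these data.

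Total counts were between 24158960 and 26787359 per WT mouse and between 21453880 and 28991631 per mouse labelled FcgRIIB-/-, and no member had fewer than 246 counts in any library. Levels are given as CPM, the count of a gene scaled to a common library size after TMM normalization. The targeted gene, *Fcgr2b*, was at 24.0 ± 8.28 CPM (SD, n = 5) in WT and 27.8 ± 2.90 CPM (SD, n = 4) in the libraries labelled FcgRIIB-/-, so its count was not lower under the knockout label (log2 fold change 0.21, standard error 0.20, edgeR adjusted p = 0.442). The groups are therefore named by their labels. The counts do not show which exons of the gene were read.

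The clock is a feedback loop of transcription that runs in nearly every cell. A dimer of the proteins of *Arntl* and *Clock* binds E-box sequences and turns on the *Per*, *Cry*, *Nr1d* and *Dbp* genes; PER and CRY proteins then inhibit the dimer, and the NR1D receptors, also called REV-ERBs, repress *Arntl* through elements named RORE, at which ROR receptors activate. DBP, a transcription factor that oscillates widely, acts on D-boxes in other genes, among them the *Per* family. In mouse peripheral tissues the transcripts peak in a fixed order: *Arntl* and *Npas2* peak opposite to *Dbp* and *Per3*, *Nr1d1* peaks before *Dbp*, and *Per2* and then *Cry1* peak later. Clocks of this kind run in bone, cartilage, teeth and muscle as well as in marrow.

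The members lie apart in the genome (RefSeq, GRCm38.p6, the build of mm10). *Arntl* and *Dbp* lie on chromosome 7, at 113178471 to 113314126 and at 45705100 to 45710203, and *Per1* and *Nr1d1* on chromosome 11, at 69095108 to 69109965 and at 98767932 to 98775377. *Clock* lies on chromosome 5 (76209868 to 76305603), *Per2* on chromosome 1 (91415977 to 91459351), *Per3* on chromosome 4 (150997018 to 151044707), *Cry1* on chromosome 10 (85131700 to 85185054), *Cry2* on chromosome 2 (92403646 to 92434085) and *Nr1d2* on chromosome 14 (18204056 to 18239106). RefSeq start windows, of 250 bases before and 50 bases from a transcript start, were matched for 9 of the 10 members, with 13 windows in all; *Per2* had none. They were searched on both strands for the E-box CACGTG, the E-prime box CACGTT, the RORE core TAGGTCA, the CRE TGACGTCA, and the D-box in its forms TTATGTAA and TTACGTAA. The letters of these elements do not overlap each other in the windows shown. The windows below are shown because they hold the elements by which the loop is known to act on a member that changed (*Arntl* and *Cry1*) and on 2 that did not pass the test (*Per1* and *Per3*); the letters found are in capitals and each window reads 5′ to 3′ along the gene's strand. The *Arntl* window is chr7:113207261-113207560 on the plus strand, with a RORE core 31 to 37 bases into the transcript. The *Cry1* window is chr10:85185005-85185304 on the minus strand, with an E-prime box (read from the other strand) from base -79 to -74 and an E-box from base -60 to -55 before the start. The *Per1* window is chr11:69098699-69098998 on the plus strand, with an E-box from base -166 to -161, and the *Per3* window is chr4:151044616-151044915 on the minus strand, with D-boxes from base -205 to -198 and from base -158 to -151.
Arntl: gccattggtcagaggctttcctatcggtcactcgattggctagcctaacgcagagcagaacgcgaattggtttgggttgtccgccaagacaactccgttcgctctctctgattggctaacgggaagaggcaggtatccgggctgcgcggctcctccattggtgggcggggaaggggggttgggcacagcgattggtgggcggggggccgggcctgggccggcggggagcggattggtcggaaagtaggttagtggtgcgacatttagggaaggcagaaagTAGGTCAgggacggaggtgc
Cry1: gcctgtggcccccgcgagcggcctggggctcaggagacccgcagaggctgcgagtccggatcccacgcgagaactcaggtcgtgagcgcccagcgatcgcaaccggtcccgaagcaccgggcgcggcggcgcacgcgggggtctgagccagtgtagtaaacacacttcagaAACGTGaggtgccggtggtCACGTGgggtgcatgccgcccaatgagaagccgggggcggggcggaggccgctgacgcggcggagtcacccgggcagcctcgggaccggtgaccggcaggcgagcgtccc
Per1: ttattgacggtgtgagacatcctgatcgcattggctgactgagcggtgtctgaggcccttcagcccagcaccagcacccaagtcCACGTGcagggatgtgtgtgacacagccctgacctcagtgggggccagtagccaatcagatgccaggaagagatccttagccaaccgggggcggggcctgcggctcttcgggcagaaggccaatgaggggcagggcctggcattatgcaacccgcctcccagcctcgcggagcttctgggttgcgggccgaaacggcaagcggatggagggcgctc
Per3: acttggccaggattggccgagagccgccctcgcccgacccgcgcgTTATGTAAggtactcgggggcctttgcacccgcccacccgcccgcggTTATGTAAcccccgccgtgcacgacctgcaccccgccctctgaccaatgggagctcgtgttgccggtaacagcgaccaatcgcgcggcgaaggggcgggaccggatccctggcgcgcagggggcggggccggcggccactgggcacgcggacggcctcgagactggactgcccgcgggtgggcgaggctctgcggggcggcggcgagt

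Of all 32851 windows in the RefSeq table, 7.15% held the E-box, 4.68% the E-prime box, 1.06% a D-box, 2.61% the RORE core and 1.79% the CRE. An E-prime box was also found in the windows of *Cry2* and *Nr1d1*, and those of *Clock*, *Nr1d2* and *Dbp* held none of the letters searched. A match is a description of these letters and not a measured site.

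*Arntl* and *Clock*, the activators, were lower in the libraries labelled FcgRIIB-/- than in WT, to 0.774 and 0.743 of the WT level, and *Per2* and *Cry1*, which encode inhibitors of that dimer, were higher, by 1.62-fold and 1.33-fold. *Per1*, *Per3*, *Cry2*, *Nr1d1*, *Nr1d2* and *Dbp* did not pass: the threshold was an edgeR adjusted p of 0.05, from the quasi-likelihood test with Benjamini-Hochberg adjustment over all tested genes. Thus 4 of 10 members were called, where 33.3% of all tested genes were called, so the share among the members was near that of all genes. In the direction of a rise, 2 of 10 were called, beside 14.0% of all genes, and in the direction of a fall 2 of 10, beside 19.3%. When the libraries were scaled by their totals alone, the calls over all genes divided into 1309 higher and 3781 lower, instead of 2289 and 3144. The members had a median log2 fold change of 0.06, and all tested genes one of 0.0055. The 4 called members were also the 4 in which the groups did not overlap, which was so for 29.6% of all genes.

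**Figure D1:**
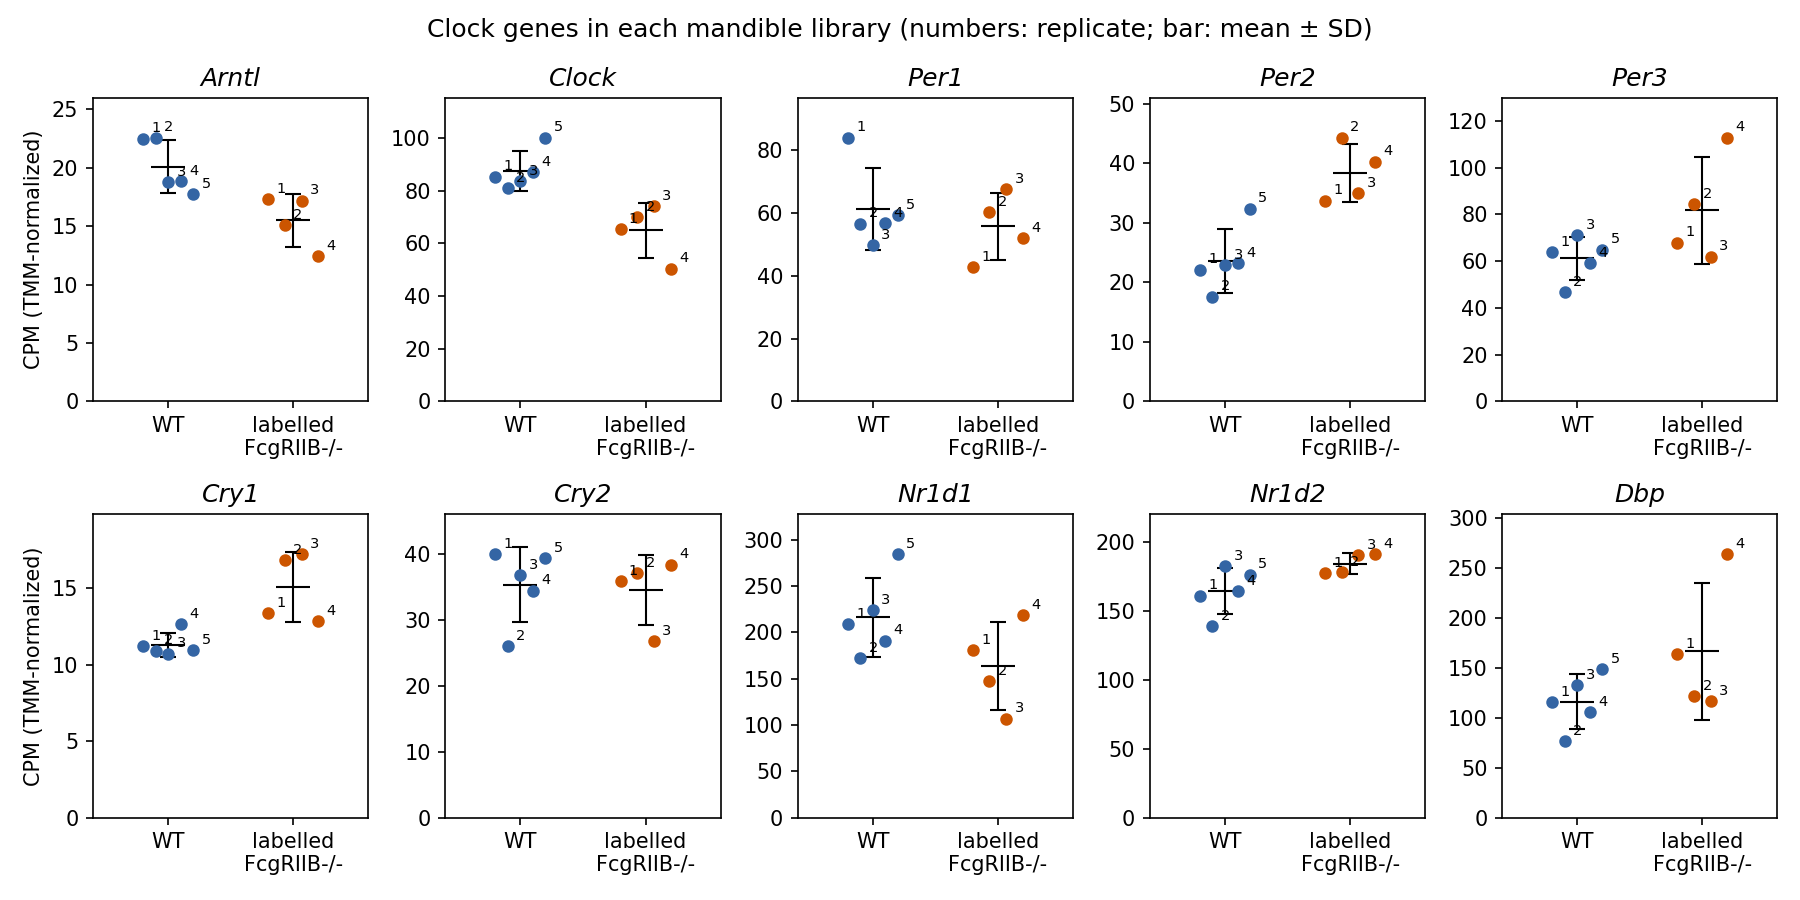
CPM after TMM scaling (vertical axes, from 0) of each clock gene in each mouse, in WT (blue, 5 mice) and in libraries labelled FcgRIIB-/- (orange, 4 mice); numbers are replicates and the bar is the mean ± SD. The groups are apart in *Arntl*, *Clock*, *Per2* and *Cry1*, and replicate 4 labelled FcgRIIB-/- stands at the top in *Dbp* (264 CPM) and *Per3* (113 CPM) and at the bottom in *Arntl* and *Clock*.

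*Arntl*, the gene of the activator BMAL1, was at 22.5, 22.6, 18.8, 18.8 and 17.8 CPM in WT replicates 1 to 5 and at 17.3, 15.1, 17.2 and 12.5 CPM in replicates 1 to 4 labelled FcgRIIB-/-. The groups were separated by a narrow gap, between 17.8 CPM in WT replicate 5 and 17.3 in replicate 1 labelled FcgRIIB-/-. The mean was 20.1 ± 2.28 CPM (SD, n = 5) against 15.5 ± 2.27 CPM (SD, n = 4), a log2 fold change of -0.37 (standard error 0.12, edgeR adjusted p = 0.0358; two-sided exact permutation test, p = 0.0159). This call was the weakest of the 4: the log2 fold change remained between -0.43 and -0.28 with each mouse left out in turn, but the edgeR adjusted p rose above 0.05 without WT replicate 1 (0.0957), 2 (0.0884) or 4 (0.0593), or without replicate 2 (0.0779) or 4 (0.0784) labelled FcgRIIB-/-.

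*Clock*, the partner of BMAL1, was at 85.4, 81.0, 83.7, 87.2 and 100.2 CPM in the WT mice and at 65.3, 70.1, 74.2 and 50.4 CPM in the mice labelled FcgRIIB-/-. The groups did not overlap, and replicate 4 of the latter was well below the other three. *Clock* fell by 0.43 on the log2 scale (standard error 0.11, edgeR adjusted p = 0.0132), from 87.5 ± 7.45 CPM (SD, n = 5) to 65.0 ± 10.4 CPM (SD, n = 4). The exact permutation p was 0.00794, the smallest that 5 mice against 4 allow. The call held with any mouse left out, with log2 fold changes between -0.50 and -0.32.

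The 3 *Period* genes encode the inhibitors that build the PER part of the repressor complex. *Per2* was at 22.1, 17.6, 22.9, 23.2 and 32.4 CPM in WT replicates 1 to 5 and at 33.7, 44.3, 35.0 and 40.3 CPM in replicates 1 to 4 labelled FcgRIIB-/-. WT replicate 5 came close to the lowest mouse of the other group, but the groups did not overlap. Its log2 fold change, 0.70, was the largest of the 10 members (standard error 0.15, edgeR adjusted p = 0.00690; exact permutation p = 0.0159), with means of 23.6 ± 5.38 CPM (SD, n = 5) and 38.3 ± 4.90 CPM (SD, n = 4). With each mouse left out in turn it remained past the threshold, with log2 fold changes between 0.62 and 0.86.

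*Per1*, which is also known to respond quickly to glucocorticoids and cAMP, was at 84.0, 56.6, 49.7, 56.6 and 59.2 CPM in WT and at 42.9, 60.3, 67.6 and 52.0 CPM in the libraries labelled FcgRIIB-/-. The groups overlapped, and WT replicate 1 was above all other mice. The log2 fold change was -0.14, with a 95% interval from -0.50 to 0.22 (edgeR adjusted p = 0.545), and without WT replicate 1 it was 0.02.

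*Per3* was at 63.9, 46.6, 71.2, 59.0 and 65.0 CPM in WT and at 67.9, 84.5, 61.9 and 112.9 CPM in the libraries labelled FcgRIIB-/-. Replicates 2 and 4 labelled FcgRIIB-/- were above all WT mice, and replicates 1 and 3 lay within the WT range. Its log2 fold change was 0.42 (standard error 0.17, edgeR adjusted p = 0.0843), which did not pass; DESeq2 gave 0.43 and a padj of 0.0426. Without replicate 4 labelled FcgRIIB-/- the log2 fold change was 0.22 (edgeR adjusted p = 0.259), and without replicate 3 it was 0.53 (edgeR adjusted p = 0.0440).

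*Cry1*, the cryptochrome that represses the dimer most strongly and peaks late, was at 11.2, 10.9, 10.7, 12.7 and 10.97 CPM in WT and at 13.4, 16.8, 17.2 and 12.8 CPM in the libraries labelled FcgRIIB-/-. The WT mice were close together, and the lowest mouse labelled FcgRIIB-/-, at 12.8 CPM, was only just above WT replicate 4, at 12.7. The means were 11.3 ± 0.786 CPM (SD, n = 5) and 15.1 ± 2.29 CPM (SD, n = 4), a log2 fold change of 0.42 (standard error 0.11, edgeR adjusted p = 0.0171; exact permutation p = 0.00794). It passed with any mouse left out, the edgeR adjusted p reaching 0.0499 without replicate 2 labelled FcgRIIB-/-, and it did not pass when libraries were scaled by their totals alone (log2 fold change 0.34, edgeR adjusted p = 0.0591).

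*Cry2*, the other cryptochrome, was at 40.1, 26.1, 36.8, 34.5 and 39.5 CPM in WT and at 35.9, 37.1, 26.8 and 38.4 CPM in the libraries labelled FcgRIIB-/-. All mice labelled FcgRIIB-/- lay within the WT range. The log2 fold change was -0.03, with a 95% interval from -0.34 to 0.27 (edgeR adjusted p = 0.871). The annotated exons of *Cry2* share 295 bases with *D930015M05Rik*, a long non-coding gene on the opposite strand that was not among the tested genes.

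The REV-ERB genes form the arm that represses *Arntl*. *Nr1d1* (REV-ERB alpha) was at 209, 172, 224, 191 and 285 CPM in WT replicates 1 to 5 and at 181, 147, 107 and 219 CPM in replicates 1 to 4 labelled FcgRIIB-/-. Replicates 2 and 3 labelled FcgRIIB-/- were below all WT mice, and the other two lay within the WT range. The log2 fold change was -0.40, with a 95% interval from -0.85 to 0.04 (edgeR adjusted p = 0.144). It was -0.57 without replicate 4 labelled FcgRIIB-/- (edgeR adjusted p = 0.0541) and -0.25 without replicate 3, and it did not pass in any of the 9 leave-one-mouse-out fits. The 3′ ends of *Nr1d1* and *Thra*, a thyroid hormone receptor gene on the opposite strand, share 263 exonic bases. The libraries were made with a directional kit but the strand setting of the counting is not given in the sources used here. How reads from that stretch were assigned, or whether they were counted, is therefore not known. The same holds for the exonic bases that *Cry2* and *Dbp* share with other genes. *Thra* itself fell from 93.9 ± 5.19 CPM (SD, n = 5) to 69.6 ± 9.80 CPM (SD, n = 4), a log2 fold change of -0.43 (edgeR adjusted p = 0.00609).

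*Nr1d2* (REV-ERB beta), the paralog with overlapping function, was at 161, 139, 183, 164 and 176 CPM in WT and at 178, 178, 190 and 192 CPM in the libraries labelled FcgRIIB-/-. The latter were tightly grouped at or above the upper end of the WT range, with WT replicate 3 above 2 of them. Its log2 fold change was 0.16, with a 95% interval from -0.02 to 0.35 (edgeR adjusted p = 0.157).

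*Dbp*, a direct target of the BMAL1 and CLOCK dimer, was at 116, 76.4, 133, 106 and 149 CPM in WT and at 164, 122, 116 and 264 CPM in the libraries labelled FcgRIIB-/-. Replicates 1 and 4 labelled FcgRIIB-/- were above all WT mice, and replicates 2 and 3 lay inside the WT range. With an SD of 27.5 CPM in WT (n = 5) and 68.5 CPM in the libraries labelled FcgRIIB-/- (n = 4), the log2 fold change of 0.52 was within the spread between mice (95% interval from -0.03 to 1.08, edgeR adjusted p = 0.133). Without replicate 4 labelled FcgRIIB-/- it was 0.21. The 3′ end of *Dbp* shares 539 exonic bases with *Sphk2*, a sphingosine kinase gene on the opposite strand, which was at 29.9 ± 1.40 CPM (SD, n = 5) in WT and 29.5 ± 1.68 CPM (SD, n = 4) in the libraries labelled FcgRIIB-/- (log2 fold change -0.02, edgeR adjusted p = 0.833).

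**Figure D2:**
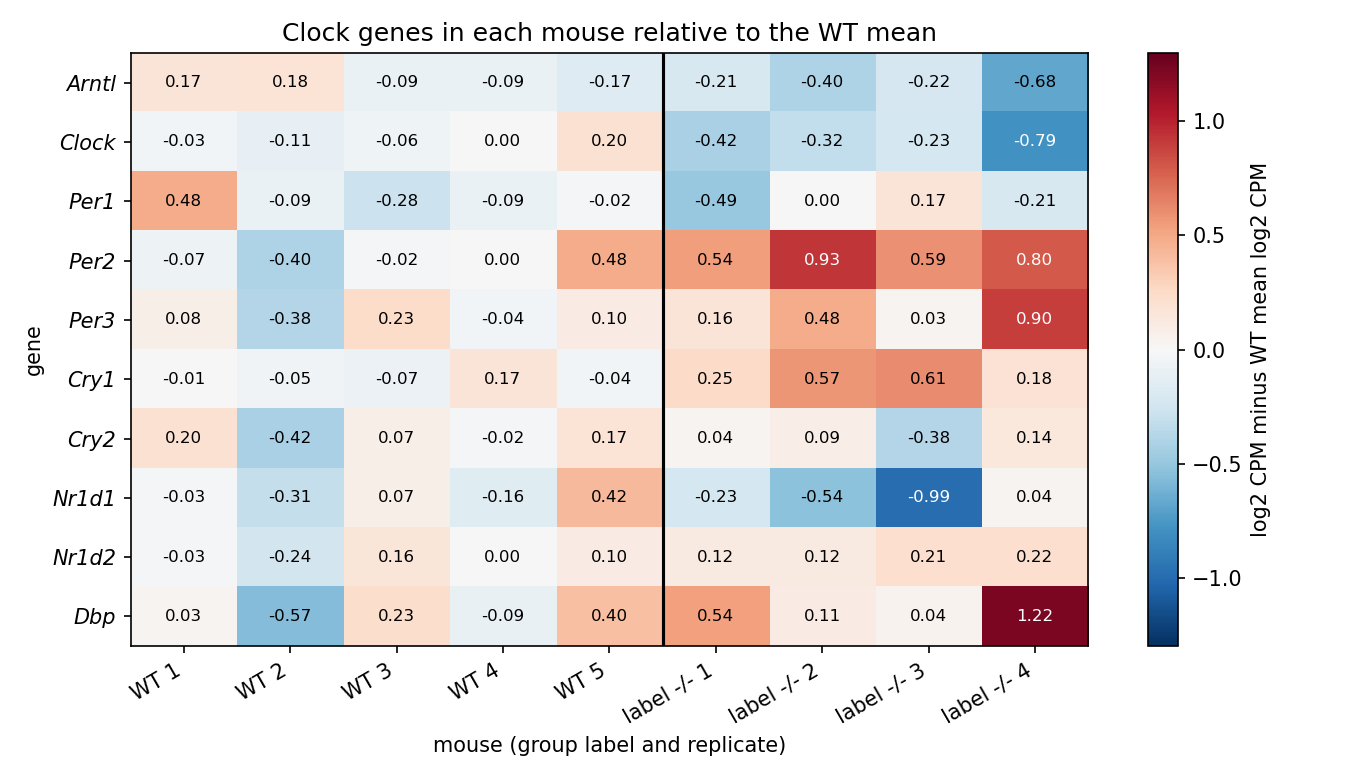
Log2 CPM of each clock gene (rows) in each mouse (columns, WT left of the line and libraries labelled FcgRIIB-/- right of it) minus the WT mean of that gene, with the value in each cell and the same value as colour. In replicate 4 labelled FcgRIIB-/- *Dbp* is 1.22 above and *Clock* 0.79 below the WT mean, while in replicate 3 the largest departure is *Nr1d1*, at -0.99.

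The mice labelled FcgRIIB-/- differed among themselves in which members departed from WT. In replicate 4, *Dbp* and *Per3* were 1.22 and 0.90 above the WT mean in log2 CPM, *Arntl* and *Clock* were at -0.68 and -0.79, and *Nr1d1* was near the WT mean, at 0.04. In replicate 3, *Nr1d1* was at -0.99 and *Dbp* at 0.04, and *Cry1* was at 0.61. *Per2* was high in all 4 of these mice, between 0.54 and 0.93 above the WT mean.

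With group means removed, mice with more *Nr1d1* tended to have more *Dbp*, and mice with more *Arntl* less *Dbp* and *Per3*, but no pair of members passed after adjustment. The order of the mice by *Dbp* was the order by *Nr1d1* in both groups. Pearson's r over the 9 mice was 0.902 for *Nr1d1* and *Dbp* (Spearman's rho 0.950; exact permutation within groups, p = 0.00660 for r and p = 0.00208 for rho). It was -0.835 for *Arntl* and *Per3* (rho -0.833, exact permutation p = 0.0146 for r and p = 0.0118 for rho). For *Arntl* and *Dbp* it was -0.753 (rho -0.750, exact permutation p = 0.0410 for r and p = 0.0385 for rho). When the 2 mice farthest from the median of the former gene were left out, r was 0.879, -0.653 and -0.465 for these pairs in turn. All 45 pairs of members were computed, after the members' values had been seen. At an unadjusted p under 0.05, 9 of them passed by r, and after Benjamini-Hochberg adjustment over the 45 none did: the adjusted p was 0.164, 0.164 and 0.205 by r, and 0.0938, 0.175 and 0.189 by rho, for the pairs named. Of the 45, 25 had a positive r and 20 a negative one. Genes of 1 library share its depth and cell content.

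**Figure D3:**
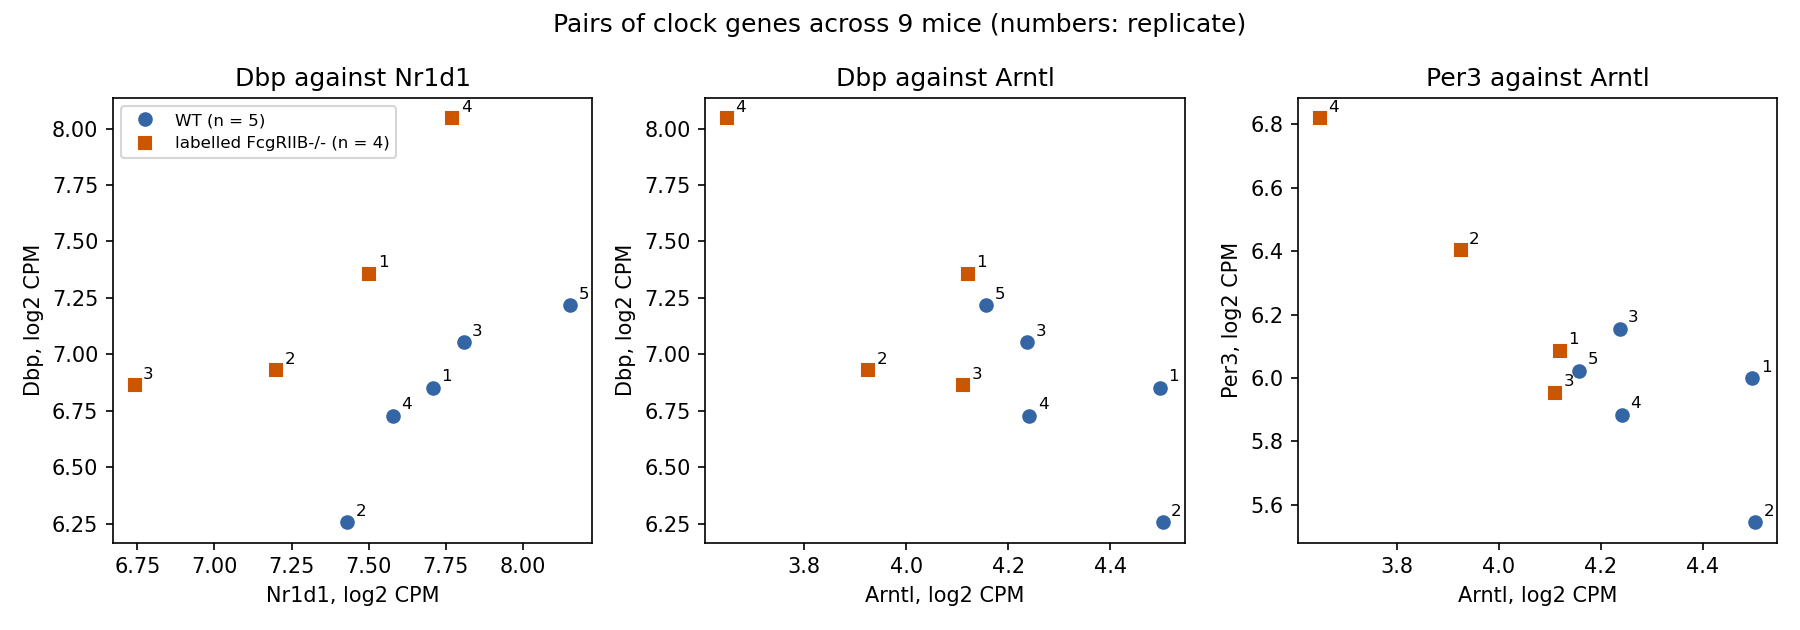
Log2 CPM of *Dbp* against *Nr1d1* and of *Dbp* and *Per3* against *Arntl* in the 9 mice (circles, WT; squares, labelled FcgRIIB-/-; numbers, replicates). *Dbp* is higher where *Nr1d1* is higher within each group, and its log2 ratio to *Nr1d1* is higher in all squares than in all circles, although the levels of *Dbp* overlap; *Dbp* and *Per3* tend to be lower where *Arntl* is higher, with replicate 4 labelled FcgRIIB-/- at one end and WT replicate 2 at the other.

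The levels of *Dbp* and of *Nr1d1* overlapped between the groups and neither gene passed, while their ratio, among 6 computed, did not overlap. The log2 ratio of the CPM of *Dbp* to that of *Nr1d1* was between -1.17 and -0.75 in WT and between -0.27 and 0.27 in the libraries labelled FcgRIIB-/-. The ratio of *Per1* to *Per2* was between 0.87 and 1.92 in WT and between 0.35 and 0.95 in the libraries labelled FcgRIIB-/-, where replicate 3 exceeded WT replicate 5. The ratio of *Dbp* to *Arntl* was between 1.75 and 3.06 in WT and between 2.75 and 4.40 in the libraries labelled FcgRIIB-/-, with replicate 3 below WT replicates 3 and 5 and replicate 2 below WT replicate 5. The ratio of *Per2* to *Arntl* was between -0.36 and 0.86 in WT and between 0.96 and 1.69 in the other group. This separation was fixed in advance and adds nothing, since the groups did not overlap in either gene and the genes differed in opposite directions. Of 6 ratios computed, the other two overlapped between the groups: that of *Nr1d1* to *Arntl* was between 2.93 and 3.998 in WT and between 2.63 and 4.12 in the libraries labelled FcgRIIB-/-, and that of *Per3* to *Arntl* between 1.04 and 1.92 and between 1.84 and 3.17. These ratios were chosen after the values were seen and were not tested. Among single genes, 29.6% had groups that did not overlap, and the share among ratios of other gene pairs was not computed.

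Genes that followed *Dbp* or *Arntl* most closely across the 9 mice, group means removed, were outside the lists of clock genes. Among 12959 other genes whose average log2 CPM was 2 or more, Pearson's r with *Dbp* was highest for *Atrip*, *Rnpepl1*, *Rabl6*, *Tns2* and *Fign* (0.960 to 0.967) and lowest for *Ttc9c*, *Pdgfra*, *Rspry1*, *Zfp87* and *Tmx4* (-0.961 to -0.989). *Nr1d1* ranked as number 63 from the top and *Per3* as number 216. For *Arntl* the highest were *Tlnrd1*, *Aebp2*, *Zc3h12c*, *Adamts1* and *Dyrk1a* (0.925 to 0.961) and the lowest *Gpr108*, *Lims2*, *Tedc2*, *Muc5b* and *Polr2j* (-0.895 to -0.970), and *Per3* ranked as number 31 and *Dbp* as number 142 from the bottom. These ranks over 9 mice are a description only.

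To compare levels between the members, CPM was divided by the length of the annotated exons in kilobases. In WT, *Nr1d1* had the highest level, 70.3 ± 14.0 CPM per kilobase (SD, n = 5), followed by *Dbp* at 38.7 ± 9.19 and *Nr1d2* at 30.5 ± 3.11, which overlapped each other. *Per1* came next at 10.9 ± 2.34, above *Clock* (6.37 ± 0.543), *Per3* (6.36 ± 0.960), *Cry2* (5.60 ± 0.895), *Per2* (4.04 ± 0.919) and *Cry1* (3.38 ± 0.235), each of which overlapped the next in that order. *Arntl* was lowest at 2.67 ± 0.303 CPM per kilobase. In the libraries labelled FcgRIIB-/- (SD, n = 4), *Dbp* at 55.6 ± 22.9 and *Nr1d1* at 53.1 ± 15.5 overlapped at the top, *Per2* stood at 6.55 ± 0.836, overlapping *Cry2* at 5.47 ± 0.833 and above *Clock* at 4.73 ± 0.758 without overlap, and *Arntl* was again lowest at 2.06 ± 0.302, below *Cry1* without overlap.

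Among the partners of the loop and its nuclear receptors, *Npas2* and *Rora* had larger log2 fold changes than any member. Of 7 such genes, 2 were lower, 1 was higher and 4 did not pass in edgeR, with a median log2 fold change of 0.08; over all tested genes 33.3% were called, so the share was not far from the background. *Npas2*, a paralog of *Clock* that also pairs with BMAL1, was at 15.4 ± 1.58 CPM (SD, n = 5) in WT and 8.16 ± 1.57 CPM (SD, n = 4) in the libraries labelled FcgRIIB-/- (log2 fold change -0.91, standard error 0.14, edgeR adjusted p = 0.00122). *Rora*, the ROR receptor that activates at RORE elements, fell by 1.22 on the log2 scale (standard error 0.22, edgeR adjusted p = 0.00292), from 11.5 ± 3.71 CPM (SD, n = 5) to 4.91 ± 0.878 CPM (SD, n = 4); WT replicate 5, at 18.0 CPM, was above the other WT mice, at 8.77 to 10.6, and the log2 fold change without it was -0.98. Both calls held with any mouse left out. *Cipc*, whose product inhibits CLOCK, rose by a log2 fold change of 0.25 (edgeR adjusted p = 0.0316). That call depended on single mice, since it passed in 6 of the 9 leave-one-mouse-out fits (edgeR adjusted p up to 0.0714, lost without WT replicate 4 or without replicate 2 or 4 labelled FcgRIIB-/-). *Ciart*, a target and repressor of the dimer, had a log2 fold change of 0.55 (edgeR adjusted p = 0.255), and *Arntl2*, *Rorb* and *Timeless* had 0.08, 0.31 and 0.02.

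Of 8 output transcription factors, only *Klf15* was called, beside 33.3% of all tested genes. Its log2 fold change was 0.33 (standard error 0.09, edgeR adjusted p = 0.0215), and the median of the list was 0.21. *Klf15*, a metabolic regulator of muscle and liver, passed in 8 of the 9 leave-one-mouse-out fits, the exception being the fit without replicate 2 labelled FcgRIIB-/- (edgeR adjusted p = 0.0605). With libraries scaled by their totals alone, *Klf15* (edgeR adjusted p = 0.0832) and *Cipc* (0.0842) did not pass. *Tef* and *Hlf*, the relatives of *Dbp*, had log2 fold changes of 0.29 (edgeR adjusted p = 0.143) and -0.09 (edgeR adjusted p = 0.608). *Nfil3*, which opposes DBP at D-boxes, had 0.58 (edgeR adjusted p = 0.0931), and *Bhlhe40* and *Bhlhe41*, which compete at E-boxes, had -0.08 and -0.30 (edgeR adjusted p = 0.596 and 0.269).

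**Figure D4:**
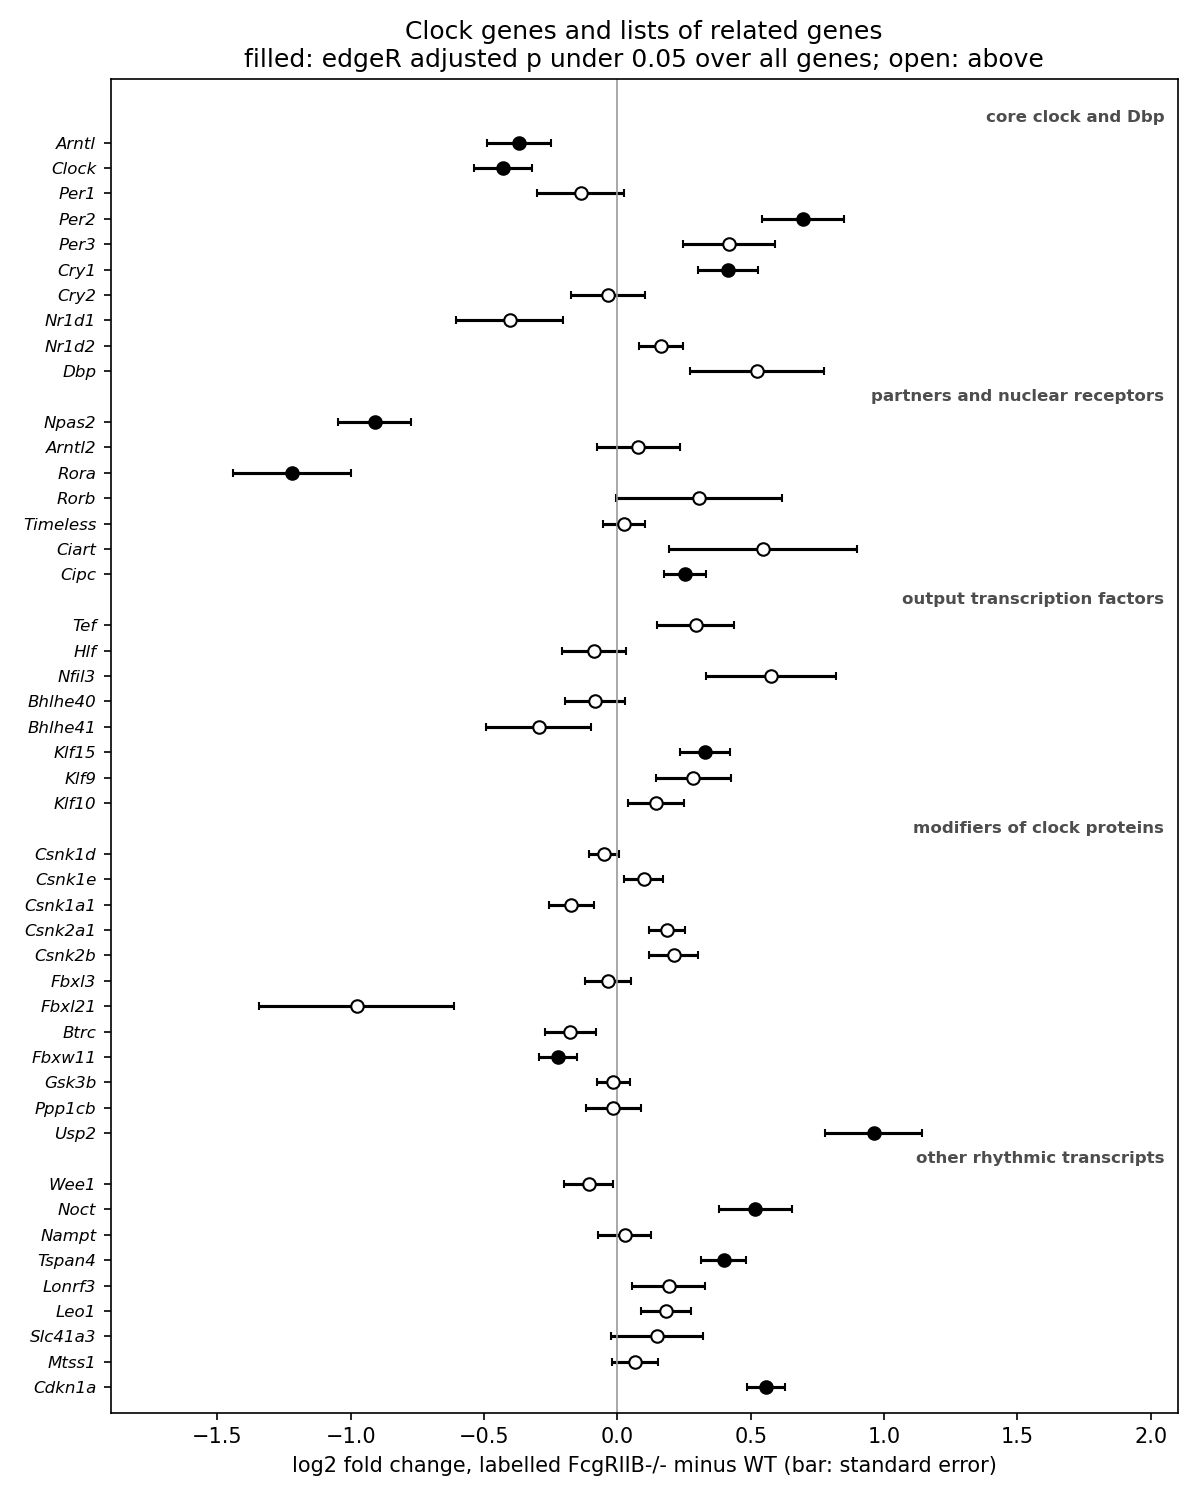
Log2 fold change, libraries labelled FcgRIIB-/- minus WT, with its standard error (horizontal axis), of the 10 clock genes and of 4 lists of related genes; filled points have an edgeR adjusted p under 0.05. *Rora* (-1.22), *Npas2* (-0.91) and *Usp2* (0.96) have the largest called changes shown.

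Among 12 modifiers of clock proteins, 1 rose and 1 fell in edgeR, beside 33.3% of all tested genes called, and the median log2 fold change was -0.03. DESeq2 called 2 of the 12 higher and 2 lower, beside 37.0% of all genes. With RLE scaling, upper-quartile scaling or library totals alone, edgeR called 3, beside 33.5%, 33.4% and 31.2% of all tested genes. *Usp2*, a deubiquitinase gene that is itself a target of the loop, was at 51.5, 23.4, 35.6, 36.7 and 42.2 CPM in WT and at 68.9, 67.9, 71.5 and 86.7 CPM in the libraries labelled FcgRIIB-/-, all above the WT mice. Its log2 fold change was 0.96 (standard error 0.18, edgeR adjusted p = 0.00342), and it passed with any mouse left out. *Fbxw11*, a subunit of a ubiquitin ligase that acts on PER proteins, had a log2 fold change of -0.22 (edgeR adjusted p = 0.0336), and it passed in only 1 of the 9 leave-one-mouse-out fits, the fit without replicate 2 labelled FcgRIIB-/- (edgeR adjusted p up to 0.0936 in the others). *Fbxl21*, whose product acts on CRY proteins, had a log2 fold change of -0.98 that did not pass (edgeR adjusted p = 0.0612). DESeq2 gave -0.96 for *Fbxl21* and a padj of 0.0374. The casein kinase genes *Csnk1d* and *Csnk1e*, whose products phosphorylate PER, had log2 fold changes of -0.05 and 0.10 (edgeR adjusted p = 0.532 and 0.317).

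Of 9 other transcripts known to cycle in many tissues, 3 rose and none fell (median log2 fold change 0.18). Among all tested genes, 14.0% were called higher and 19.3% lower, 33.3% in either direction. *Cdkn1a*, the cell cycle inhibitor p21, rose from 194 ± 10.2 CPM (SD, n = 5) to 285 ± 17.5 CPM (SD, n = 4), a log2 fold change of 0.56 (edgeR adjusted p = 6.15e-04). *Noct*, the gene of nocturnin, and *Tspan4* rose by 0.52 (edgeR adjusted p = 0.0160) and 0.40 (edgeR adjusted p = 0.00547). In each of the 3 the groups did not overlap, as in 29.6% of all tested genes.

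Inputs to the clock were also examined. Of 12 genes that respond to glucocorticoids, 4 rose and 1 fell (median log2 fold change 0.42), beside 14.0% of all tested genes called higher and 19.3% called lower. The metallothioneins *Mt2* (1.12, edgeR adjusted p = 0.00711) and *Mt1* (1.03, edgeR adjusted p = 0.00117), *Pdk4* (0.78, edgeR adjusted p = 0.0132) and *Fkbp5* (0.76, edgeR adjusted p = 0.0447) rose, and *Nr3c1*, the glucocorticoid receptor, had a log2 fold change of -0.37 (edgeR adjusted p = 0.00351). The groups overlapped in *Pdk4* and *Fkbp5* but not in *Mt1* and *Mt2*. Replicate 4 labelled FcgRIIB-/- was at 95.1 CPM in *Pdk4* (WT 77.9 to 105.4) and at 29.9 CPM in *Fkbp5* (WT 23.8 to 50.6). *Nr3c1* was named after its value was seen, and *Fkbp5* passed in only 2 of the 9 leave-one-mouse-out fits, those without WT replicate 5 or without replicate 4 labelled FcgRIIB-/- (edgeR adjusted p up to 0.134 in the others), and did not pass with library totals alone (0.0604). None of 10 immediate early and CREB target genes passed in edgeR with TMM scaling, where 33.3% of all tested genes did, and 4 had an unadjusted p under 0.05. This count depended on the scaling. With RLE scaling edgeR called 1 of the 10, beside 33.5% of all tested genes. With upper-quartile scaling it called 2, beside 33.4%. DESeq2 called 3 of the 10 higher and none lower. Of all genes it called 37.0% in either direction, 2831 genes higher and 3204 lower. *Egr1*, named after its values were seen, was at 356 CPM in replicate 2 labelled FcgRIIB-/- and between 37.9 and 95.9 CPM in the other mice, and *Per1* in that replicate was at 60.3 CPM, within the WT range.

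Markers of several other cell types in the mandible also differed between the groups. Over all tested genes, 14.0% were called higher and 19.3% lower. Of 14 skeletal muscle markers, 8 were higher and none lower in the libraries labelled FcgRIIB-/-, with a summed level of 23331 to 41080 CPM against 9713 to 22648 CPM in WT. All 12 marrow myeloid markers were lower (141 to 433 CPM against 1188 to 3653), as were all 8 tested erythroid markers (109 to 491 CPM against 1841 to 2188), 7 of 8 B cell markers (4.44 to 19.7 CPM against 28.95 to 92.8) and 7 of 8 osteoclast markers (275 to 520 CPM against 855 to 1217). Of 10 markers of keratinized epithelium, 6 were lower and 1 was higher (4785 to 6160 CPM against 6157 to 22309), and of 6 tooth markers 4 were higher (31447 to 53592 CPM against 10533 to 28613). Osteoblast and bone markers, which define the labelled tissue, were abundant in all mice, at 43567 to 53910 CPM against 46332 to 67361. Of 11 such markers, 3 were lower and none higher, beside 33.3% of all tested genes called in either direction. Of 4 tested adipocyte markers, *Fabp4* was higher (log2 fold change 1.05), *Adipoq* was lower (-1.53) and 2 did not pass; *Fabp4* makes up most of the summed level (117 to 167 CPM against 49.6 to 89.5). No marker found in the count table was at 0 in all libraries, and 2 erythroid markers had no row of that symbol. In bulk samples, fewer cells of a type and less RNA per cell cannot be told apart, and the part of cell content in the changes of the clock genes was not tested.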

How the data were processed

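Poly(A) RNA of whole mandibles was sequenced by the authors as 75 bp single-end reads. After trimming (Trim Galore), alignment was to mm10 (HISAT 02.1.0), and featureCounts assigned reads to genes; the deposited values are raw counts. The gene annotation, strand setting and handling of multi-mapped reads are not given in the sources used here. The table also held 1 column that matched no sample label, and it was not used. Of its rows, 1030 carried a gene identifier but no symbol, and they remained in library sizes and tests.

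Genes were filtered with edgeR 4.0.16 filterByExpr (minimum count of 10), scaled with TMM, and compared by the quasi-likelihood test in R 4.3.3 over all 9 mice without covariates, with Benjamini-Hochberg adjustment and a threshold of 0.05. A standard error is the size of the log2 fold change divided by the root of its F value, and intervals use the fit's degrees of freedom. log2 CPM used a prior count of 2. Single genes were also tested by an exact permutation test (two-sided, every division of the 9 mice into 5 and 4), and correlations by exact permutation within groups (2880 orders). The test was checked on simulated counts. No 2 libraries within a group were near-identical. DESeq2 1.42.0, other scalings (RLE, upper-quartile, library totals) and filters, a replicate block and leaving out each mouse were alternatives. Gene positions and start windows came from RefSeq, and exon lengths, strands and shared exonic bases from GENCODE M21, both on GRCm38.

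The members and lists were chosen with earlier results of these data known. Named genes are the members, all genes of the clock lists, up to 4 called genes of each other list by size of change, genes overlapping a member, and the 5 genes at either extreme of correlation with *Dbp* and *Arntl*. 1 gene of these lists is not reported here.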

Additional observations from a re-analysis of the deposited data

Results flagged for a closer look

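Within a group, the highest or lowest mouse was compared with the nearest other mouse as a share of the group's range (Dixon's ratio), in CPM, for the 10 clock genes and 14 called genes of the related lists. Of 48 groups examined 4 stood out, where chance gives about 1 in 20. *Per1* reached 84.0 CPM in WT replicate 1, where the remaining WT mice spanned 49.7 to 59.2. *Cry1* reached 12.7 CPM in WT replicate 4, where the remaining WT mice spanned 10.7 to 11.2, so the mouse nearest to the libraries labelled FcgRIIB-/- was the one apart from its group. *Rora* was at 18.0 CPM in WT replicate 5, against 8.77 to 10.6 in the others, and *Fkbp5* was at 50.6 CPM in the same mouse, against 23.8 to 28.6.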

How the results depend on the processing

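For the 10 clock genes, 146 of the 160 alternative values remained on the same side of zero and of the threshold. *Clock* and *Per2* passed in the same direction under all 7 alternatives of scaling, filter, tool and replicate block and in all 9 leave-one-mouse-out fits. The number of members called higher was 1 instead of 2 with library totals alone and with the replicate block, because *Cry1* had an adjusted p of 0.0591 (log2 fold change 0.34) and 0.0796 (0.40) there; *Per3* passed in DESeq2's Wald test (0.43). With each mouse left out, the members called lower numbered 1 to 2, and log2 fold changes were between -0.43 and -0.28 for *Arntl*, between 0.22 and 0.53 for *Per3*, between -0.24 and 0.02 for *Per1* and between -0.11 and 0.07 for *Cry2*. The sign of *Per1* turned without WT replicate 1 (0.0194), and that of *Cry2* turned with the replicate block (0.0116), without WT replicate 1 (0.0312) or 5 (0.0304) and without replicate 3 labelled FcgRIIB-/- (0.0714). Mice with the same replicate number are different animals, and their deviations from the group means correlated between -0.11 and 0.10, so the numbers were not taken as pairs; the replicate block lowered the calls over all genes from 5433 to 4004. Among the called genes of the related lists, *Noct* (adjusted p = 0.0571), *Klf15* (0.0932), *Cipc* (0.0851) and *Fbxw11* (0.0709) did not pass with the block. The cause of these changes was not tested. Every member had 246 or more counts per library, but the groups were parted by narrow gaps in *Cry1* (12.7 CPM in WT, 12.8 in the libraries labelled FcgRIIB-/-) and *Arntl* (17.8 and 17.3 CPM). Whether these 2 gaps exceed counting error was not tested.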
